A study of Mus musculus with 4 samples.

Results

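The genes described here are 10 genes of melanin synthesis and the melanosome, chosen by symbol from the 17721 genes of the deposited table: Tyr, Tyrp1 and Dct (enzymes), Pmel, Mlana and Gpr143 (melanosome proteins), Oca2, Slc45a2 and Slc24a5 (transporters) and Trpm1 (a pigment cell channel). All 10 were found. They were measured in RNA of epidermal lysates from dispase-treated back skin of C57BL/6 mice, a black strain, at postnatal day 63, in 2 libraries of LDB2-/- mice and 2 libraries of wild type (WT) mice. The only stated difference between the groups is the LDB2-/- genotype, and neither the kind of Ldb2 allele nor whether the 2 libraries of a group came from separate animals is stated in the labels, so p-values measure the spread between these libraries. Ldb2 encodes an adaptor that joins LIM domain transcription factors into complexes.

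Melanin is made in melanosomes, lysosome-related organelles of melanocytes. Tyrosinase (Tyr) oxidises tyrosine, the related enzymes Tyrp1 and Dct act on later steps of eumelanin synthesis, and the pigment is laid down on amyloid fibrils of Pmel. Ion and solute transport across the melanosome membrane sets the conditions for tyrosinase, and loss of several of these genes lightens skin, hair or eyes. In mouse back skin most melanocytes sit in hair follicles, where they make pigment while the hair grows and stop when it rests.

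The libraries held 54095522 and 68436842 counts in LDB2-/- and 67307536 and 57517162 counts in WT. Ldb2 itself had 0 and 0 counts in LDB2-/- and 0 and 8 counts in WT, so it could not check the labels. Of 13 listed basal keratinocyte genes, all with counts in every library, the summed level was 11512 and 11659 in LDB2-/- and 27537 and 25302 in WT, in CPM (read counts scaled to library size by the TMM method). Of 10 suprabasal keratinocyte genes the sum was 7745 and 7610.1 CPM in LDB2-/- and 33470 and 28470 CPM in WT. Dermal fibroblast genes, a list of 10, summed to 252 and 317 CPM in LDB2-/- and 121 and 88.7 CPM in WT. edgeR tested 12400 genes and called 57.2% of them (adjusted p below 0.05), with 28.4% higher and 28.8% lower in LDB2-/-. With libraries scaled by their total alone, 2248 genes were higher and 5096 lower, and the median over the tested genes was -0.33 on the log2 scale, against -0.01 with TMM. With TMM scaling 12 of 13 basal genes were lower and 1 higher, 6 of 10 suprabasal genes lower and 2 higher, 7 of 8 tested fibroblast genes higher, and 6 of 12 cell cycle genes higher (1 of 12 with the total alone), the rest of each list not passing.

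RefSeq promoter windows of GRCm38.p6, the assembly also called mm10, were at hand for 6 of the 10 genes (Tyr, Tyrp1, Dct, Slc24a5, Oca2 and Trpm1, which has 2 starts). The windows run from 250 bases before to 50 bases after the start of a RefSeq entry, and distances are counted from that start. For Tyrp1 and Oca2 it lies downstream of the first base of the gene coordinates given below. The Tyrp1 stretch shown therefore lies inside those coordinates, and the Oca2 stretch lies just before them. They were searched on both strands for CATGTG, a form of the E-box recognised by Mitf, the main transcription factor of melanocytes. The longest run around it that Tyr and Tyrp1 share is AGTCATGTGCT, known as the M-box of tyrosinase family genes, and the run that Dct shares with both is GTCATGTGCT. These longer runs were read from the windows themselves, so their presence there is no finding. Stretches of 30 bases are shown to let the shared letters be seen, with capitals for the longer run in Tyr, Tyrp1 and the first Dct match and for the 6 letters elsewhere.
Tyr (chr7:87493517-87493546, minus strand): agaaaaagttAGTCATGTGCTttgcagaag
Tyrp1 (chr4:80834154-80834183, plus strand): gtggggagggAGTCATGTGCTgcctagtag
Dct (chr14:118052379-118052408, minus strand): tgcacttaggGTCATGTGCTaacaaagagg
Dct, second match (chr14:118052461-118052490, minus strand): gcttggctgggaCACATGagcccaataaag
Slc24a5 (chr2:125068093-125068122, plus strand): ctggggaggaaggagactgctCACATGatt
Trpm1, long form (chr7:64153682-64153711, plus strand): ccaaatcctcatCATGTGcccaccccaaac
Oca2 (chr7:56239561-56239590, plus strand): ttgagcttgctaCACATGgctggaattttc

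Capitals that read CACATG are the same 6 letters on the other strand. The 11 letters of the M-box stood in the windows of Tyr and Tyrp1, beginning 24 and 49 bases before the start, and in 0.0213% of all 32851 windows of the RefSeq table. The window of Dct held GTCATGTGCT, its last 10 letters, 152 bases before the start, which 0.186% of all windows hold. The 6 letters CATGTG, which lie within both longer forms, were found in all 7 windows of the 6 genes, against 14.2% of all windows. With a T before them (TCATGTG, partly in lower case in the stretches above) they were found in 5 of the 7 windows and in 3.77% of all windows. In the window of the short Trpm1 form they lay 37 bases after the start, and that window also held the palindromic E-box CACGTG, which 7.15% of windows hold. A match is a run of letters and no measure of binding.

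**Figure D1:**
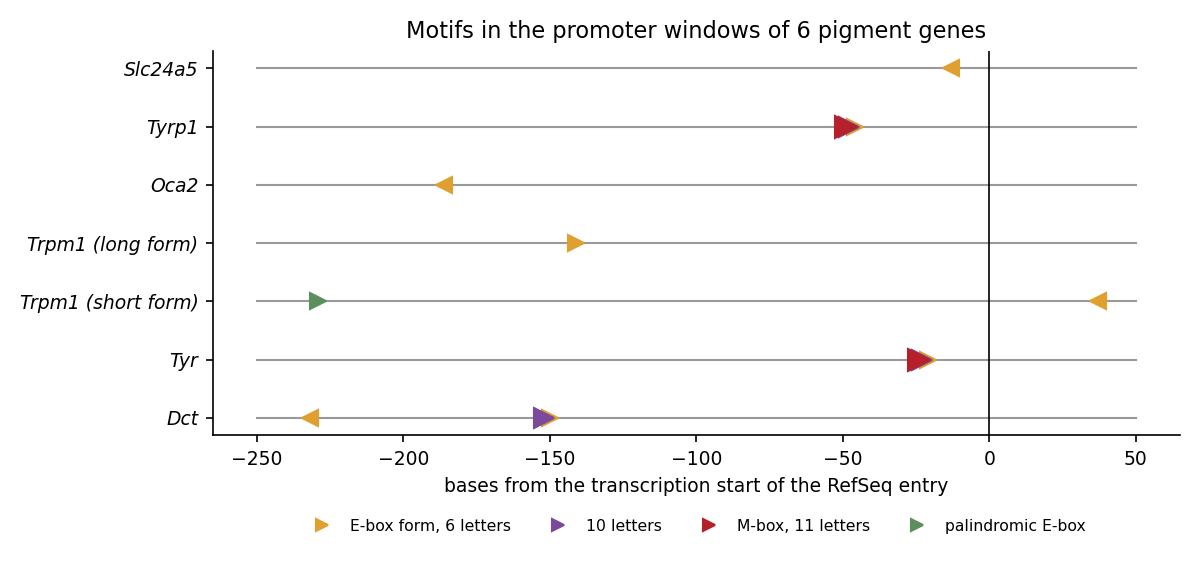
Motif matches in the promoter windows of the pigment genes. The x axis gives bases from the transcription start (0, vertical line), each grey line is a window from 250 bases before to 50 bases after it, and a triangle marks the first base of a match and points in the direction of its strand, to the right for the gene's own. Counted from the start of the RefSeq entry, the red M-box matches of Tyr and Tyrp1 lie within 50 bases. The matches of Dct, Oca2 and the long Trpm1 form lie farther upstream of that start. For Tyrp1 and Oca2 the gene coordinates given in the text begin upstream of it.

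All 10 genes were higher in LDB2-/- epidermis, by log2 fold changes of 4.61 to 6.98 (median 5.73), against a median of -0.01 over all tested genes. Each of the 10 passed the test, where 28.4% of tested genes were called higher, and each was called with at least a 16-fold rise, where 2.75% were. Both LDB2-/- libraries lay above both WT libraries for each of them, as for 40.8% of tested genes. The median was 5.06 without WT library 1 and 6.73 without WT library 2, and all 10 were called in both cases. To be tested a gene needed an FPKM (fragments scaled to transcript length and library size) of 1 in 2 libraries. Only Dct and Pmel reached that in both WT libraries, and Tyr, Oca2, Slc45a2, Slc24a5 and Gpr143 reached it in neither, so these 5 entered the test through their LDB2-/- libraries alone. With no filter on low values all 10 were still called, with a median of 5.71, where 3488 of all 17721 genes were called higher.

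Tyr (gene ID 22173, chromosome 7, 87424771 to 87493512 in GRCm38, as for all coordinates here), the rate-limiting enzyme of melanin synthesis, was at 65.8 and 55.0 CPM in LDB2-/- and at 0.984 and 2.51 CPM in WT. Its log2 fold change was 5.12 (SE 0.45, edgeR adjusted p = 0.000505). Tyrp1 (gene ID 22178, chromosome 4, 80834123 to 80851736), which stabilises tyrosinase and acts late in eumelanin synthesis, was at 197 and 199 CPM in LDB2-/- and at 2.52 and 9.27 CPM in WT. The 2 WT libraries differed more for Tyrp1 than the 2 LDB2-/- libraries did, and its log2 fold change was 5.08 (SE 0.62, edgeR adjusted p = 0.00142). Dct (gene ID 13190, chromosome 14, 118012790 to 118052246), the tautomerase that converts dopachrome and a marker of melanoblasts before they make pigment, was at 452 and 516 CPM in LDB2-/- and at 16.9 and 22.7 CPM in WT. Dct was the most abundant of the 10 genes in WT and had the lowest log2 fold change, 4.61 (SE 0.20, edgeR adjusted p = 9.08e-05). All 3 enzymes were well separated between genotypes.

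Pmel (gene ID 20431, chromosome 10, 128695888 to 128720238), the fibril protein, was at 398 and 481 CPM in LDB2-/- and at 5.57 and 10.9 CPM in WT, a log2 fold change of 5.74 (SE 0.38, edgeR adjusted p = 0.000214). Mlana (gene ID 77836, chromosome 19, 29697541 to 29708447), a small membrane protein that binds Pmel in early melanosomes, was at 82.1 and 111 CPM in LDB2-/- and at 0.378 and 1.18 CPM in WT. Mlana had the highest fold change of the 10, 6.98 on the log2 scale (SE 0.52, edgeR adjusted p = 0.000296). Gpr143 (gene ID 18241, chromosome X, 152781921 to 152808651), a receptor in the melanosome membrane that limits melanosome size, was at 9.67 and 12.0 CPM in LDB2-/- and at 0.0809 and 0.356 CPM in WT. Its WT values rest on 6 and 23 counts, and its log2 fold change was 5.65 (SE 0.60, edgeR adjusted p = 0.000909). For each of these melanosome proteins the lower LDB2-/- library was above the higher WT library by a wide margin.

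Among the transporters, Oca2 (gene ID 18431, chromosome 7, 56239593 to 56536518), a melanosome anion transport protein, was at 23.2 and 19.1 CPM in LDB2-/- and at 0 and 0.820 CPM in WT. The WT values came from 0 and 53 counts, and a count of 0 in WT library 1 allows up to 0.0446 CPM of the unscaled library, for counting error only. Oca2 was the least certain of the 10, with a log2 fold change of 5.73 (SE 1.17, edgeR adjusted p = 0.00863). DESeq2 did not call it (5.70, SE 2.77, adjusted p = 0.0622). The adjusted p in the authors' deposited table was 0.0788 for Oca2 and at most 4.62e-09 for each of the other genes. Leaving out WT library 1 gave 4.68, and against WT library 1 alone Oca2 had a log2 fold change of at least 9.03, taking 3 counts for its 0.

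Slc45a2 (gene ID 22293, chromosome 15, 11000721 to 11029233), a sugar and proton transporter homologue, was at 30.0 and 37.6 CPM in LDB2-/- and at 0.310 and 0.913 CPM in WT, a log2 fold change of 5.80 (SE 0.50, edgeR adjusted p = 0.000484). Slc24a5 (gene ID 317750, chromosome 2, 125068127 to 125088677), a potassium-dependent sodium and calcium exchanger, was at 34.8 and 35.6 CPM in LDB2-/- and at 0.337 and 0.959 CPM in WT, a log2 fold change of 5.78 (SE 0.48, edgeR adjusted p = 0.000419). The 3 transporters had log2 fold changes closer to each other than the SE of any one. Trpm1 (gene ID 17364, chromosome 7, 64153835 to 64269772), a cation channel of melanocytes and retinal bipolar cells, was at 222 and 242 CPM in LDB2-/- and at 2.13 and 5.11 CPM in WT. It had the second highest log2 fold change, 6.01 (SE 0.45, edgeR adjusted p = 0.000296).

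**Figure D2:**
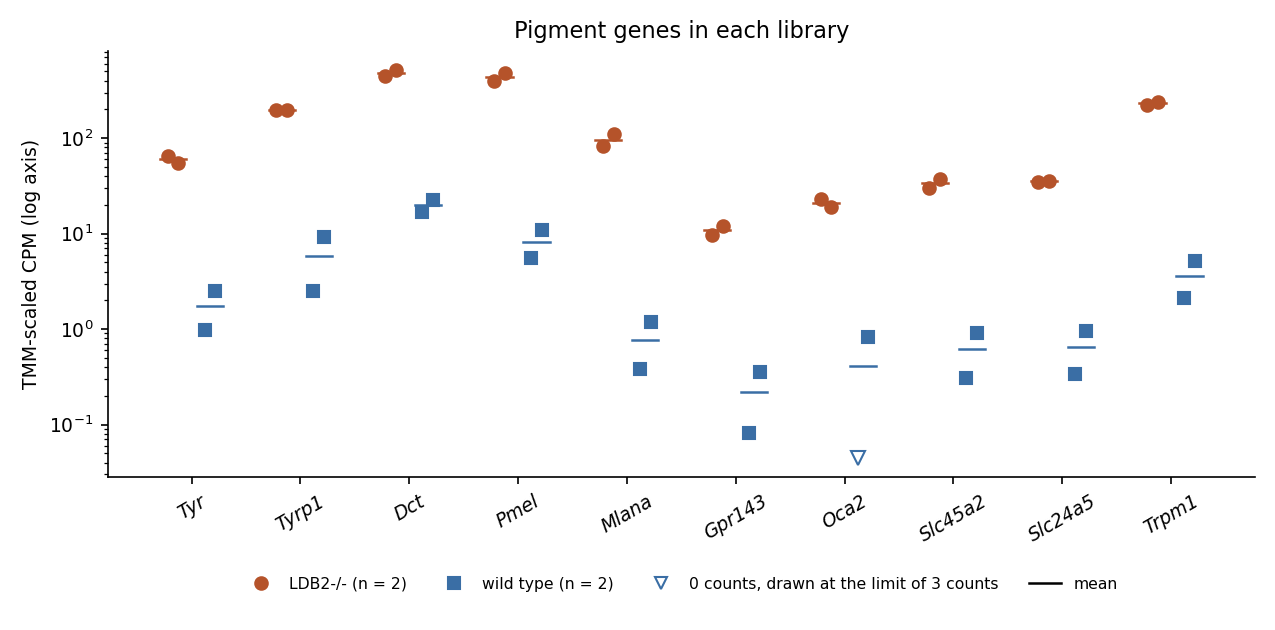
TMM-scaled CPM of the 10 pigment genes in each library, on a log axis. Circles are the 2 LDB2-/- libraries, squares the 2 WT libraries, short lines the group means, and the open triangle marks 0 counts of Oca2, drawn at the level of 3 counts. The lower LDB2-/- value lies above the higher WT value for every gene, and the WT squares are spread more widely than the LDB2-/- circles on this axis.

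Trpm1 is listed with 2 transcripts in the deposited table. Its long form has 27 exons and 5711 bases and starts at 64153835, and its short form has 14 exons and 2928 bases and starts at 64185459, in the GENCODE M21 annotation of GRCm38. For a gene with 1 transcript, counts divided by FPKM differ between libraries only by a library factor: over 6648 such genes with at least 200 counts in each library, the value relative to LDB2-/- library 1 lay between 0.999 and 1.00 in the other 3 libraries (5th to 95th percentile). For Trpm1 it was 0.999 in LDB2-/- library 2, 1.54 in WT library 1 and 1.14 in WT library 2. This quantity grows with the length of the transcripts that the FPKM assigns reads to. For the other 9 genes it stayed between 0.998 and 1.04, leaving out Oca2 in WT library 1, which had no counts. The WT values of Trpm1 rest on 158 and 330 counts. The microRNA gene Mir211, inside Trpm1, had 0 and 1 counts in LDB2-/- and 0 and 0 in WT, in libraries that were not made for small RNA.

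Exons of Slc24a5 share 921 of their 2330 annotated bases with Myef2, a gene on the opposite strand, and those of Pmel share 105 and 34 of 2292 bases with Dgka and Cdk2. Whether counting used strand is not stated, so reads from such bases cannot be assigned with certainty. Myef2 was at 6.57 and 7.70 CPM in LDB2-/- and at 3.17 and 3.34 CPM in WT. By reads, and not per length, Myef2 was below Slc24a5 in LDB2-/- and above it in WT. Dgka was at 86.4 and 85.4 CPM in LDB2-/- and at 149 and 140 CPM in WT, and Cdk2 at 42.8 and 40.4 CPM in LDB2-/- and at 36.6 and 42.7 CPM in WT. By reads, both were likewise below Pmel in LDB2-/- and above it in WT. The WT levels of Slc24a5 and Pmel are therefore less certain than their LDB2-/- levels, with fewer shared bases for Pmel.

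Levels are comparable between genes only per length, as FPKM. In LDB2-/- epidermis Dct, Mlana and Pmel were the highest, at 187 ± 9.94, 183 ± 31.7 and 181 ± 16.8 FPKM (mean ± SD, n = 2), and did not differ beyond their spread. Trpm1 (69.3 ± 1.34) and Tyrp1 (63.4 ± 2.07) came next, followed by Slc24a5 (15.8 ± 0.37). Slc45a2 (9.93 ± 1.18) and Tyr (8.85 ± 1.49) overlapped each other, as did Oca2 (5.97 ± 1.05) and Gpr143 (5.73 ± 0.631). In WT, Dct stood alone at 9.59 ± 2.14 FPKM. Pmel (4.26 ± 2.01), Tyrp1 (2.36 ± 1.93), Mlana (1.85 ± 1.37) and Trpm1 (1.1 ± 0.829) overlapped with their neighbours, and the other 5 genes averaged between 0.141 and 0.365 FPKM. Tyr itself was among the less abundant of the mRNAs in both genotypes.

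The makeup of the pigment gene mRNA differed between the genotypes' libraries for some of the genes. Dct held 26.1% and 25.2% of the summed FPKM of the 10 genes in LDB2-/-, against 58.4% and 41.3% in WT. Mlana held 23.3% and 26.7% in LDB2-/-, against 6.39% and 10.5% in WT. These shares do not depend on how libraries are scaled to each other. In FPKM the genotypes did not overlap for Dct and Mlana, nor for Pmel, Trpm1 and Slc45a2, and they overlapped for the other members. Slc24a5 overlapped only narrowly, with 2.330% and 2.020% in LDB2-/- and 1.355% and 2.021% in WT. Its shares of counts did not overlap, with 2.29% and 2.08% in LDB2-/- and 1.16% and 1.75% in WT. Trpm1 held 9.90% and 9.12% in LDB2-/- and 3.68% and 6.26% in WT. Slc45a2 held 1.32% and 1.40% in LDB2-/- and 0.814% and 1.25% in WT. Pmel was closer, with 24.4% and 25.0% in LDB2-/- and 20.5% and 21.1% in WT. Tyr held 1.43% and 1.01% in LDB2-/- and 1.26% and 1.72% in WT, so its genotypes overlapped, and so did those of Tyrp1 (9.40% and 8.04% in LDB2-/-, 7.18% and 13.9% in WT). The ratio of Mlana to Dct, in FPKM, was 0.892 and 1.06 in LDB2-/- and 0.109 and 0.254 in WT. The shares are given as a description, since with 2 libraries against 2 a two-sided exact permutation test cannot give a p below 0.33. Dct and Mlana, which did not overlap, had that p in this test.

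**Figure D3:**
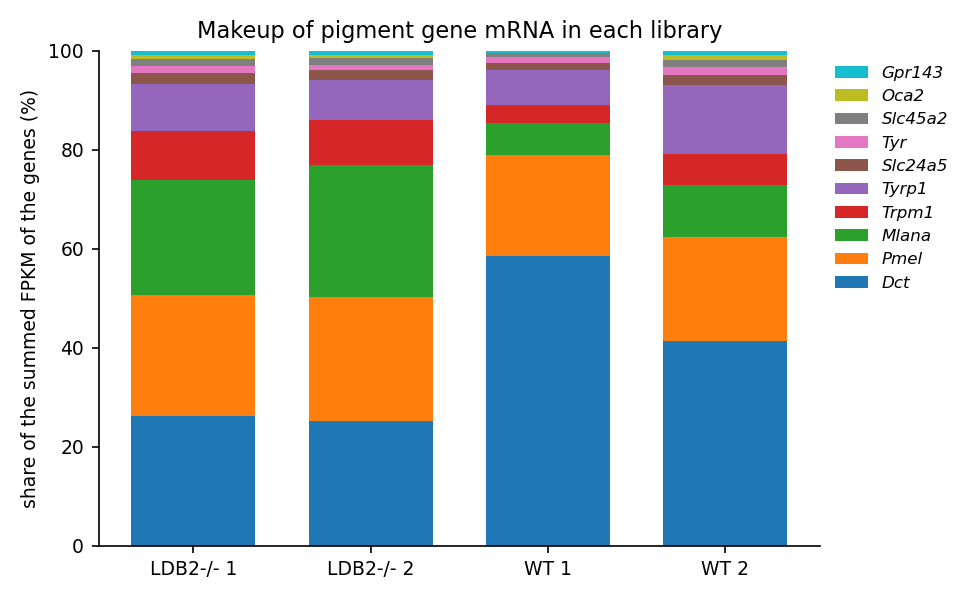
Share of each pigment gene in the summed FPKM of the 10 genes, in percent, with 1 stacked bar per library. Dct takes 26.1% and 25.2% of the LDB2-/- bars and 58.4% and 41.3% of the WT bars, and Mlana takes 23.3% and 26.7% of the LDB2-/- bars and 6.39% and 10.5% of the WT bars.

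The 2 WT libraries were not alike. Each of the 10 genes was higher in WT library 2 than in library 1, where 49.7% of tested genes were, and the ratio ran from 1.35 for Dct to 4.40 for Gpr143, leaving Oca2 with its 0 aside. Summed over the 10 genes, the level was 1515 and 1709 CPM in LDB2-/- and 29.2 and 54.7 CPM in WT. Library 2 was 1.88 times library 1 within WT and 1.13 times library 1 within LDB2-/-. Hair matrix and inner root sheath genes, a list of 20 with such markers as Msx2 and Krt71, also differed between the WT libraries, but unevenly. Their summed level was 119497 and 130272 CPM in LDB2-/- and 591 and 1096 CPM in WT, of which Gata3, a gene also used by other epidermal cells, made up 348 and 311 CPM. WT library 2 stood to library 1 at 0.777 for Hoxc13, 1.08 for Msx2, 1.17 for Foxn1, 4.0 for Krt71 and 30.7 for Krt82, the ends being those of the list without Shh. In that list 19 of 20 genes were higher in LDB2-/- (28.4% of all tested genes were) and Gata3 did not pass, with a median log2 fold change of 7.18. Shh was at 0 in WT library 1, and Shh and Krt82 entered the test through LDB2-/- alone. The part of hair matrix content in the rise of the pigment genes was not tested, and in bulk RNA more cells of a type and more RNA per cell cannot be told apart.

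Receptors and transcription factors of the melanocyte lineage, ligands that act on it and Bcl2 were tested as a list of 20. Of these, 19 were in the table and 14 passed the filter. Of these 14, 8 rose, 5 fell and 1 did not pass, with a median log2 fold change of 1.11, where 28.4% of all tested genes were called higher and 28.8% lower. Sox10, Ednrb and Mc1r were below an FPKM of 1 in both WT libraries and so entered the test through LDB2-/- alone. With no filter 9 of 19 were higher and 5 lower, where 3488 of all 17721 genes were called higher and 3741 lower. Sox10, the neural crest factor that sustains the melanocyte lineage, was at 20.7 and 25.5 CPM in LDB2-/- and at 2.43 and 2.03 CPM in WT (log2 fold change 3.37, SE 0.23, edgeR adjusted p = 0.000241). Kit, the receptor that melanoblasts need to migrate and survive, was at 33.7 and 30.7 CPM in LDB2-/- and at 5.61 and 7.77 CPM in WT (2.27, SE 0.21). Ednrb, the endothelin receptor of the lineage, rose by 4.22 (SE 0.46). Lef1, a Wnt effector that hair matrix cells also use and that the hair list holds too, rose by 6.02 (SE 0.61).

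Mitf, named although it was outside the rule for named genes, was at 17.8 and 40.0 CPM in LDB2-/- and at 10.4 and 9.95 CPM in WT, a log2 fold change of 1.51 (SE 0.38, edgeR adjusted p = 0.0178). Its 2 LDB2-/- libraries differed by more than the lower of them differed from WT. Genes that fell were Met (-1.67), Irf4 (-1.35), Erbb3 (-1.08), Snai2 (-1.01) and Bcl2 (-0.90). Met and Erbb3 are receptors and Snai2 a transcription factor that keratinocytes also express, and Irf4 is also a lymphocyte factor. The call of Bcl2 was lost without WT library 2 (adjusted p = 0.105) and without LDB2-/- library 1 (adjusted p = 0.0542). Tfap2b, at 101 and 85.9 CPM in LDB2-/- and at 32.4 and 82.7 CPM in WT, did not pass (edgeR adjusted p = 0.191) but was called higher without WT library 2 (1.53, adjusted p = 0.000135). Pax3 was too low to be tested, with 106 and 184 counts in LDB2-/- and 128 and 92 counts in WT.

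Set against Sox10, Kit and Mitf within the same library, the pigment genes stood higher in LDB2-/-. That order does not hold for every gene of the lineage list. Mc1r and Lef1 rose by log2 fold changes of 5.81 and 6.02, against a median of 5.73 for the 10 genes. There were 73.2 and 66.9 counts of the 10 genes per count of Sox10 in LDB2-/-, against 12.0 and 27.0 in WT. Per count of Kit there were 44.9 and 55.6 in LDB2-/- and 5.20 and 7.05 in WT. Per count of Mitf there were 85.1 and 42.7 in LDB2-/- and 2.81 and 5.50 in WT. Relative to Krt71, an inner root sheath keratin, the order was turned, with 0.0478 and 0.0452 in LDB2-/- and 0.683 and 0.320 in WT. Relative to Msx2, a homeobox gene of the hair matrix, there were 4.31 and 4.31 in LDB2-/- and 5.37 and 9.31 in WT. Relative to Foxn1, a transcription factor of the same hair list, there were 7.45 and 7.93 in LDB2-/- and 1.47 and 2.35 in WT, so the ratios to hair genes went in both directions. These 6 ratios are unaffected by the scaling of libraries. The 6 genes were chosen by hand, and the share of all genes whose ratio would separate the genotypes was not counted.

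**Figure D4:**
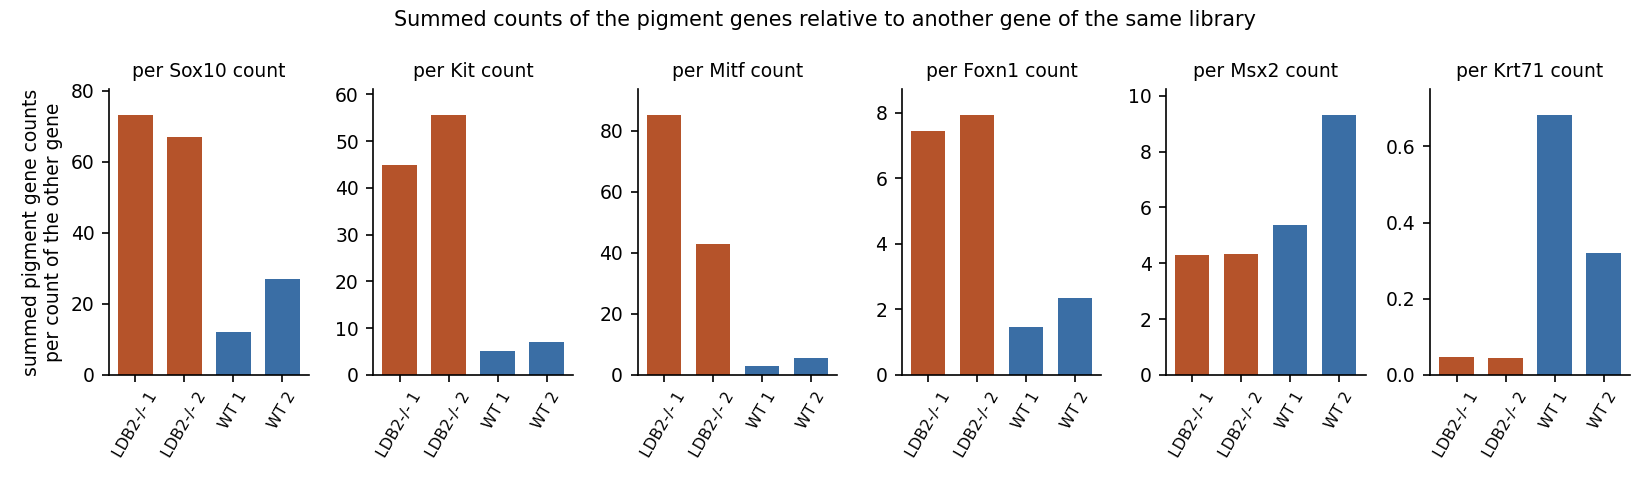
Summed counts of the 10 pigment genes divided by the count of 1 other gene of the same library, 1 bar per library and 1 panel per gene, each with its own linear axis from 0. LDB2-/- bars (orange) are higher than WT bars (blue) per count of Sox10, Kit, Mitf and the hair list gene Foxn1, and lower per count of Msx2 and Krt71.

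Genes for building, sorting and moving melanosomes were a list that also held Slc7a11 and Ggt1, of cystine transport and glutathione breakdown. Most genes of the list serve lysosome-related organelles of other cells as well, and their fold changes were mostly smaller. All 36 of this list were tested: 21 rose, 5 fell and 10 did not pass, with a median log2 fold change of 0.46, where 28.4% of all tested genes were called higher and 28.8% lower. Mlph, Slc7a11 and Ggt1 entered the test through LDB2-/- alone. With no filter 19 rose and 4 fell, where 3488 of all 17721 genes were called higher and 3741 lower. With libraries scaled by their total alone, 13 rose and 10 fell, and the median was 0.14. In that setting 2248 of 12400 tested genes were called higher and 5096 lower. The members with the smallest p-values serve melanosome transport and structure. Mlph, the linker that ties melanosomes to the motor, was at 23.3 and 23.2 CPM in LDB2-/- and at 1.04 and 0.913 CPM in WT (log2 fold change 4.57, SE 0.22, edgeR adjusted p = 0.000112). The motor Myo5a was at 117 and 107 CPM in LDB2-/- and at 35.7 and 38.8 CPM in WT (1.59, SE 0.11). Rab27a, the small GTPase that holds Mlph on the melanosome, moved the other way, with 18.6 and 16.8 CPM in LDB2-/- and 40.5 and 42.3 CPM in WT (-1.23, SE 0.13, edgeR adjusted p = 0.000956). The 3 parts of this transport complex differed in direction.

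Gpnmb, a relative of Pmel that macrophages also express, was at 1099 and 1013 CPM in LDB2-/- and at 17.9 and 31.9 CPM in WT (log2 fold change 5.41, SE 0.33). The macrophage list had 6 of 8 tested genes higher and 2 lower (28.4% and 28.8% of all tested genes were), with a summed level of 385 and 448 CPM in LDB2-/- and 215 and 201 CPM in WT and none of its 10 genes at 0; its part in the level of Gpnmb was not tested. Sytl2, another effector of Rab27a, rose by 3.08 (SE 0.16). Lyst, a regulator of lysosome size, was at -1.23, a call lost without WT library 2 (-0.76, adjusted p = 0.0685). Rab32, which delivers Tyr and Tyrp1 to melanosomes, fell by 0.87, and Dstyk, a kinase, was at -0.64, no longer called without LDB2-/- library 2 (-0.46, adjusted p = 0.0874). Slc7a11, the cystine transporter used for pheomelanin, rose by 2.85 (SE 0.34) and Ggt1, an enzyme of glutathione breakdown, by 7.35 (SE 0.66). Both were named after their values were seen.

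A further list of 14 genes was chosen as pigment cell markers, though not all of them are particular to these cells. Of them 13 were in the table and 9 were tested. Of the 9, 7 rose, where 28.4% of all tested genes did, and 2 did not pass. These were St8sia1 at 0.25 and Mreg at -0.12, with signs that turned under some alternatives. Slc24a4, Tbx2 and Tspan10 entered the test through LDB2-/- alone. With no filter 6 of 13 were higher and 1 lower, where 3488 of all 17721 genes were called higher and 3741 lower. Ptgds, a prostaglandin D synthase, was at 147 and 200 CPM in LDB2-/- and at 1.17 and 2.35 CPM in WT (log2 fold change 6.63, SE 0.39, edgeR adjusted p = 0.000165). Tspan10, a tetraspanin, rose by 5.33 (SE 0.45), Syngr1, a vesicle protein, by 2.07 (SE 0.17) and Fmn1, a formin, by 1.08 (SE 0.14). Of the untested members, Kcnj13 had 0 and 74 counts in LDB2-/- and 0 and 0 in WT, and Gapdhs, better known from sperm, had 0 and 0 counts in LDB2-/- and 88 and 74 in WT. Schwann cell markers, the other neural crest derivatives looked at, had 4 of 9 tested genes higher, 2 lower and 3 not passed, and the 4 higher ones (Prx, S100b, Gfra3 and Mal) all entered the test through LDB2-/- alone. With no filter 6 of 15 were higher and 2 lower, beside the same counts over all 17721 genes. The summed level over the 15 genes was 130 and 122 CPM in LDB2-/- and 144 and 161 CPM in WT.

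**Figure D5:**
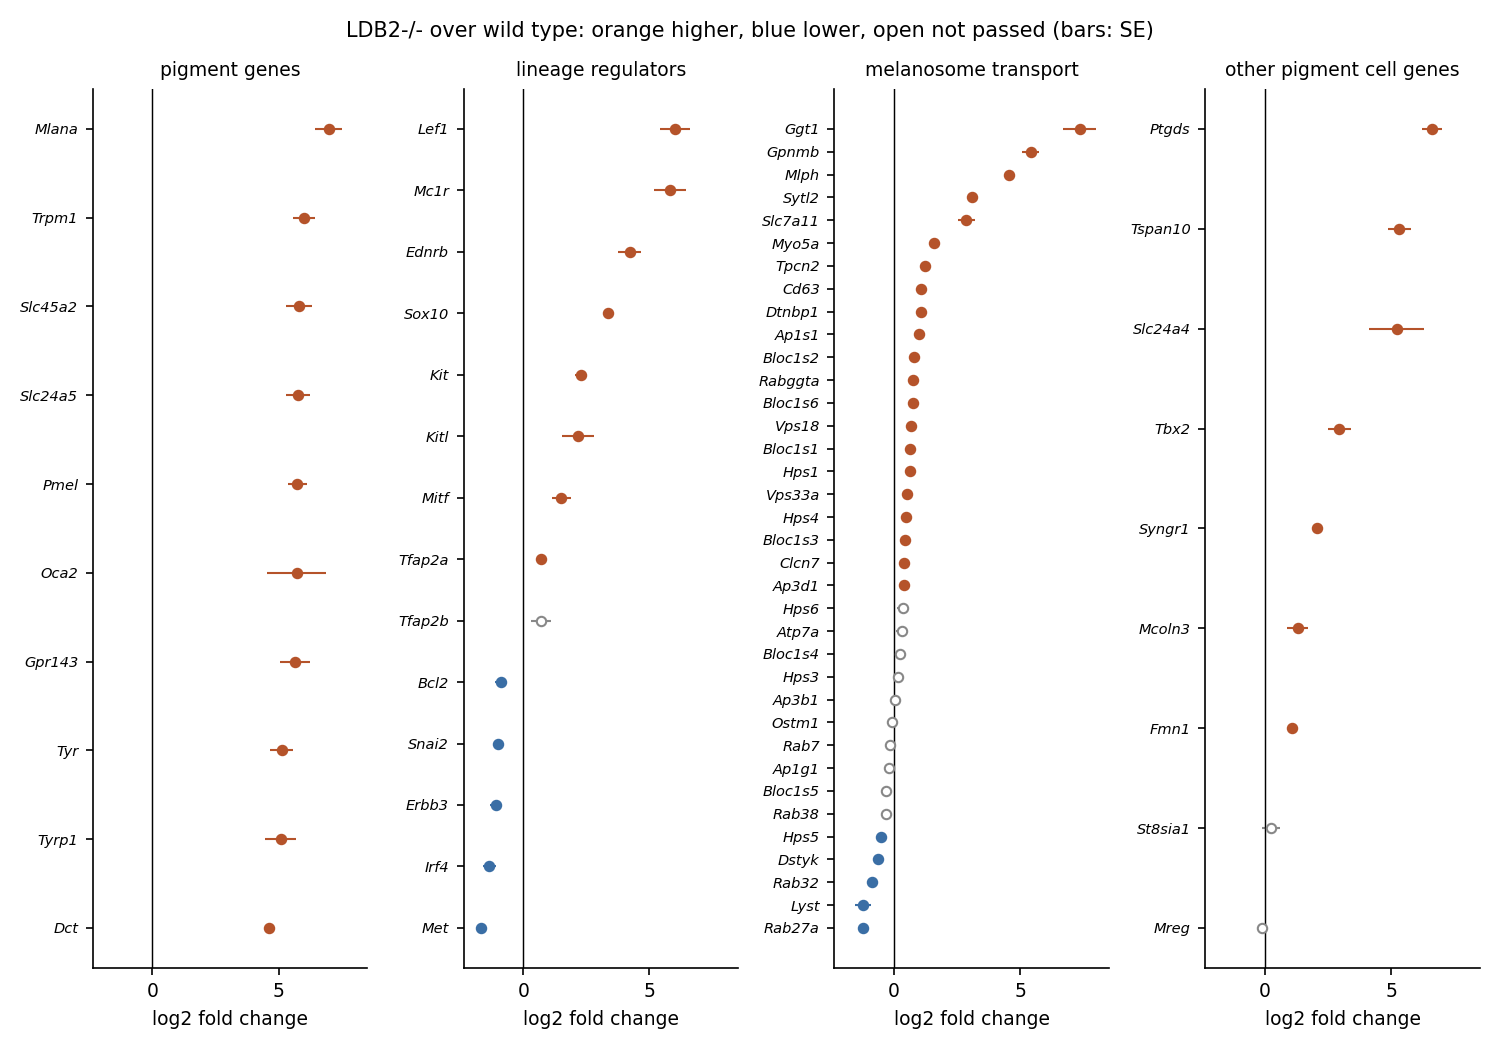
Log2 fold changes of LDB2-/- over WT for the 10 pigment genes and for the tested genes of 3 related lists, with SE bars. Orange points were called higher, blue points lower, and open points did not pass an adjusted p of 0.05. The 10 pigment genes lie between 4.61 and 6.98. The panel titled melanosome transport runs from -1.23 to 7.35 with a median of 0.46. Its upper end is Ggt1, an enzyme of glutathione breakdown.

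Profiles over the 4 libraries were compared among tested genes, with unnamed gene models left out. Outside the 10, the genes closest to their mean log2 profile were Krtap27-1, Krt39, Kcng2, Mc1r, Krt36 and Tagln. Their root mean square distances were 0.0497 to 0.166 on the log2 scale after centring each gene. Distances of the 10 genes themselves ran from 0.0612 for Slc24a5 to 0.682 for Oca2. Mc1r, the melanocortin receptor that steers melanocytes towards eumelanin, was at 18.0 and 26.2 CPM in LDB2-/- and at 0.148 and 0.650 CPM in WT, with a log2 fold change of 5.81 (SE 0.64). Krtap27-1, Krt39 and Krt36 encode hair proteins, Kcng2 a potassium channel subunit and Tagln a smooth muscle protein. A profile over 4 libraries mostly reflects the difference between genotypes, and many genes share it.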

How the data were processed

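The authors deposited 1 table with whole-number read counts per gene, not normalized, for all 4 libraries, per the file headers. They also deposited FPKM values, scaled per transcript length and library size, and log2 values normalized between libraries by a method the headers do not name. The authors' own signed fold change, treated as a score, and their adjusted p-value stand in the same deposited table. Among the tools in the submitters' processing notes are StringTie 1.3.4d, HISAT2 2.1.0 and bcl2fastq 1.8.4, with the build mm10. Settings are not given in the sources used here. Dispase treatment of skin, Trizol extraction and a TruSeq RNA kit are given per the labels' protocols.

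Counts were tested with edgeR 4.0.16 (quasi-likelihood, TMM scaling, two-sided, R 4.3.3) for genes whose FPKM reached 1 in 2 libraries, with Benjamini-Hochberg adjustment over all genes tested. The SE is the one implied by the F statistic. limma 3.58.1 and DESeq2 1.42.0 served as alternatives. The test was also run on simulated counts with known changes in a small part of the genes. It recovered 3 of 67 changes of 1.5-fold, 20 of 67 of 2-fold and 62 of 66 of 4-fold, with 16 false calls. Small changes were thus often missed there, and a gene that did not pass is not shown to be unchanged. Far more genes were called in the data, so these recovered shares need not hold for them. Total counts were between 54095522 and 68436842 per library, and intervals and limits from counts cover counting error only. The 2 libraries of each group differed by more than sampling noise. Profiles were compared on log2(CPM + 0.1).

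The members and lists were chosen with earlier results of these data known. The rule for named genes took all 10 genes, Ldb2 and the 6 most similar profiles among tested genes, unnamed gene models left out. From a related list it took the 4 genes with the smallest p-values and up to 4 that did not pass or moved against the list. It was applied to the 3 pigment cell lists, and the other lists are given by counts and sums.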

Additional observations from a re-analysis of the deposited data

How the results depend on the processing

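The 10 pigment genes were compared with 15 alternatives, and 147 fold changes resulted, since a mean FPKM of 5 or more left 7 of the 10 in the test. In 146 the direction and the call were kept, in 0 the direction turned, and in 1 the call was lost, that of Oca2 with DESeq2. The median log2 fold change of the 10 genes was 3.90 with limma on log2(FPKM + 1), 5.0 on log2(FPKM + 0.1) and 3.17 on the authors' log2 values. Leaving out 1 library gave 5.06 to 6.73, the lowest without WT library 1 and the highest without WT library 2. A pseudocount lowers the fold change of genes that are low in WT, and the cause of the lower value on the authors' scale was not tested. Without WT library 2, WT library 1 alone stood for WT and was assumed to vary like the other group, and of the genes named, Bcl2, Lyst, Tfap2b and St8sia1 changed their calls in that case. The count of all genes called stayed between 5101 and 7743, but the number tested differed. The 5101 were of 8567 tested with a mean FPKM of 5 or more. The 7743 were of 12400 tested with limma on log2(FPKM + 1), and with no filter on low values 7229 of 17721 were called. With the replicate number as a block, 6092 genes and all 10 pigment genes were called. Same-numbered libraries did not pair (the correlation of deviations was -0.16), and with the numbers crossed, an alternative added after seeing the data, 7269 genes were called. The share held by Dct was lower in LDB2-/- by 24.2 percentage points on FPKM and by 19.6 on counts. Low WT counts, from 0 for Oca2 to 1467 for Dct, limit the precision of the fold changes.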
